A study of Solanum pimpinellifolium with 60 samples.

Results

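The genes described here are the 150, of 34725 in the count table, whose transcripts stood highest in wild-type floral buds at 2 days post floral initiation (2 dpi) relative to the 4 other stages sampled. Counts were scaled to reads per 1000000 counts of a library (RPM), and the 3 wild-type libraries of a stage were averaged. Of the 11726 genes with a 2 dpi mean of at least 10 RPM, the 150 with the largest ratio of the 2 dpi mean plus 1 to the highest other stage mean plus 1 were taken. The wild-type values therefore chose the members, and they are given as a description without a test. The tests used the libraries of the 3 mutant lines, which had no part in the choice. Gene identifiers are printed without the version suffix of the table.

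The plants were *Solanum pimpinellifolium* LA1589, a wild relative of tomato, as the wild type (WT) and as 3 near-isogenic lines (NILs) that carried the cultivated alleles lc, fas, or both (lc/fas). The lc allele lies downstream of SlWUS and the fas allele is an inversion with 1 end in the SlCLV3 promoter. All 4 genotypes came from 1 backcross family. Each was sampled as the shoot apical meristem of the sympodial axis (SYM), the floral meristem together with the inflorescence meristem (F&IM), and buds at 2, 4 and 6 dpi, with 3 replicates of hand-dissected tissue pooled from several greenhouse plants, which gave 60 libraries of 3′ Tag RNA-seq. In such pooled tissue, fewer cells of a type and less RNA per cell cannot be told apart.

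Around 2 dpi the flower primordium has separated from the inflorescence meristem and the sepals emerge, while the inner whorls are still to form. Boundary genes of the NAC family keep neighbouring organs apart, auxin made by YUCCA enzymes acts where organs emerge, and secreted peptides of the EPF-like family signal through receptor kinases of the ERECTA group, all known mainly from Arabidopsis. SlWUS and SlCLV3, the genes next to lc and fas, belong to the loop that sets stem cell number in the meristem.

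Library totals ran from 2038899 to 9172182 counts, apart from fas 6 dpi replicate 3 with 441291 counts, where a member at 10 RPM rests on few counts. Markers followed the stage labels in the wild type. SlCLV3 (Solyc11g071380) had means of 62.7 RPM in SYM, 45.3 in F&IM, 19.8 at 2 dpi and 1.15 at 6 dpi, and the AGAMOUS gene TAG1 (Solyc02g071730), which specifies stamens and carpels, had 2.43 RPM at 2 dpi and 70.3 RPM at 4 dpi. Some libraries stood apart from their own replicates in the genes described here. The measure was the median over genes of log2(RPM + 1) minus the gene's mean over all libraries outside 2 dpi, taken for 128 of the members (all but the 22 described below). It was 0.09 and -0.02 in WT SYM replicates 1 and 2 but -1.46 in replicate 3. In WT 6 dpi it was -1.24, 0.68 and -0.82, and in lc/fas 6 dpi it was -0.75, 0.69 and -0.66. The other libraries under -0.5 were fas SYM replicate 1 at -0.51 and fas F&IM replicate 3 at -0.67. The totals of these 7 libraries ran from 3422001 to 9172182 counts. Without the 3 wild-type ones, the same rule chose 53 of the 150 again.

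In the wild type the members had 2 dpi means from 10.1 to 2262 RPM, with a median of 29.1 RPM, and their ratios ran from 2.71 down to 1.33. At the lower edge, Solyc06g051180, Solyc08g014040 and Solyc02g087040 had ratios of 1.336, 1.335 and 1.334. Just outside, Solyc12g019290, Solyc09g031790 and Solyc08g059800 had 1.333, 1.332 and 1.331. The stage with the next highest wild-type mean was 4 dpi for 75 members, F&IM for 50, 6 dpi for 13 and SYM for 12. For 53 members all 3 wild-type 2 dpi libraries exceeded the 12 libraries of the other stages, beside 1.12% of all genes tested.

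Whether the pattern recurred in plants that did not choose it was asked in the 45 NIL libraries. All 150 members passed the filter on low counts and were among the 18712 genes tested. A member was called when 2 dpi exceeded each of the other 4 stages and the largest of the 4 p-values passed an adjusted p of 0.1. With the NILs together, edgeR's quasi-likelihood test called 22 of the 150, against 0.315% of all genes tested (59 genes), and 51 had an unadjusted p under 0.05, beside 353 of all genes. In fitted levels without a test, 125 of the 150 had their highest stage at 2 dpi, against 17.1% of all genes. The median member lay 0.47 log2 units above the mean of the other 4 stages, its excess, against 0.02 for all genes. By a test of that excess, a measure chosen after the data were seen, 111 members were higher at 2 dpi (18.5% of all genes) and 0 were lower (16.8%). Within single NILs, 42 members passed for lc (4.35%), 49 for fas (4.61%) and 74 for lc/fas (5.25%).

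**Figure D1:**
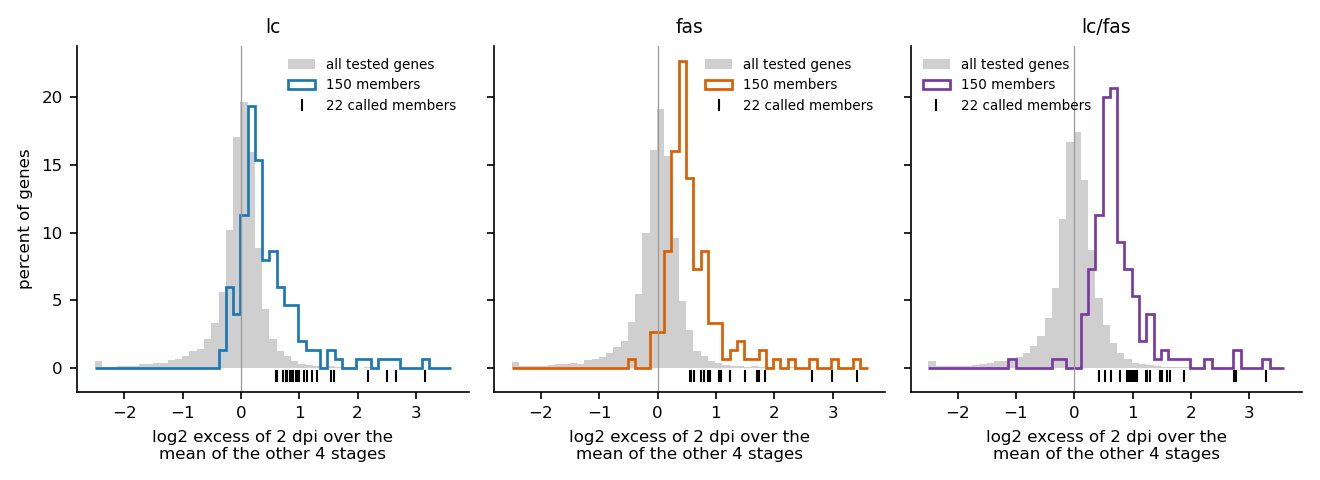
Fitted log2 difference between 2 dpi and the mean of the other 4 stages (x axis) in each NIL, as the percent of genes per bin (y axis) for all 18712 genes tested and for the 150 members. The member medians are 0.30 (lc), 0.47 (fas) and 0.64 (lc/fas), and the medians of all genes lie between 0.01 and 0.03.

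Within a single NIL the strict test called few members, namely 2 for lc (0.016% of all genes), 4 for fas (0.0321%) and 6 for lc/fas (0.0374%), and 21, 26 and 25 had an unadjusted p under 0.05, beside 69, 87 and 108 of all genes. Fitted levels without a test were highest at 2 dpi for 81, 103 and 141 members, against 15%, 14.2% and 20.6% of all genes. By mean RPM, 85, 107 and 135 members were highest at 2 dpi, against 15.45%, 13.7% and 19.3% of all genes. Other members were highest elsewhere, 36 in SYM in lc and 32 at 6 dpi in fas, where the mean includes the library of 441291 counts. The shares of all genes for these stages were not computed. The 3 libraries of 2 dpi lay above the 12 others of the same NIL for 22, 23 and 31 members, beside 0.77%, 0.577% and 1.01% of all genes. The counts of the strict test depended on the fit and rested on single replicates. With a block for the replicate number they rose to 7 for lc, 9 for fas and 12 for lc/fas. Leaving out lc replicates 1, 2 and 3 in turn left 0, 1 and 1 for lc, leaving out lc/fas replicate 3 also left 1 there, and leaving out fas replicate 3 gave 4. For fas, 1 was left without fas replicate 2 and 2 without fas replicate 3, and for lc/fas 1, 2 and 3 were left without its replicates 1, 2 and 3.

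The 22 called members were selected for a high 2 dpi level, by the rule in the wild type and by the test in the NILs, so their levels are a description. Their median relative level lay between 0.84 and 1.22 log2 units in the 12 libraries of 2 dpi and was at most 0.45 in any library of another stage. Within single genotypes, the 3 libraries of 2 dpi lay above the 12 others for all 22 in the wild type, but for 19 (lc), 18 (fas) and 18 (lc/fas) of them in the NILs. The range among the 3 replicates of a group was 0.04 to 0.47 log2 units for the 22 and 0.09 to 1.92 for the other 128. The test in the NILs favours low spread there, so the spread is given for the wild type. The wild-type libraries chose the members, partly through the 3 low ones, so this spread is not free of the choice either. In the wild type the median within-group SD was 0.29 on the log2 scale for the 22, 0.69 for the 128 and 0.22 for the 11726 genes above the minimum. All 22 were among the 53 members chosen again without the 3 low wild-type libraries.

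**Figure D2:**
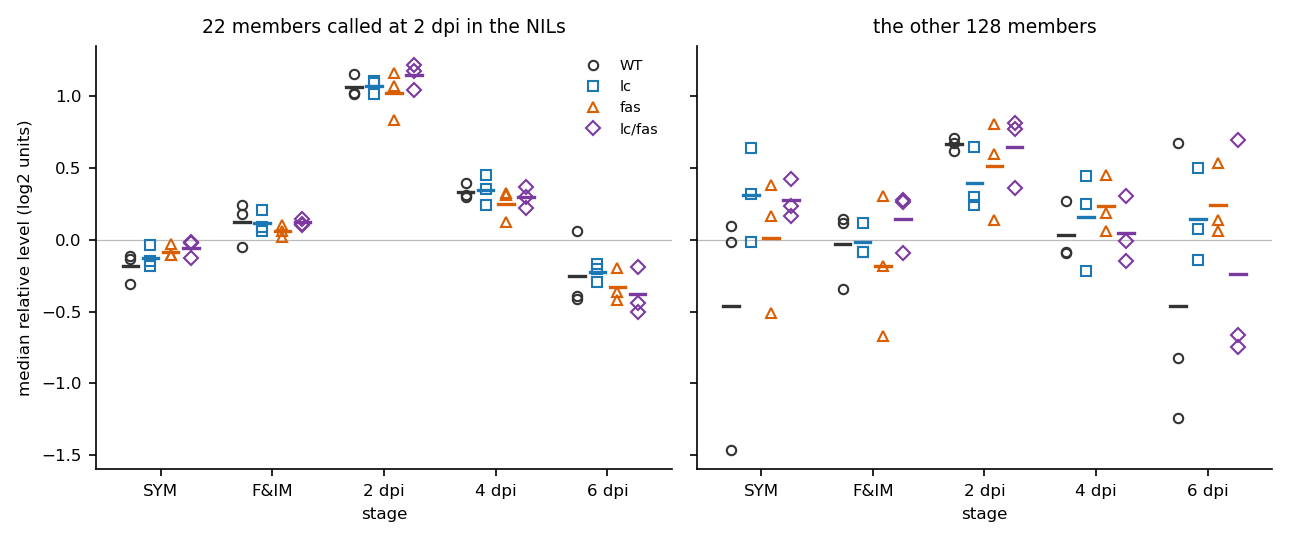
Median over genes of the level relative to each gene's mean over the libraries outside 2 dpi, in log2 units (y axis), by stage (x axis) and genotype, for the 22 called members (left) and the other 128 (right). Each symbol is 1 library and each bar a mean of 3. The 22 lie between 0.84 and 1.22 in the 2 dpi libraries and between -0.51 and 0.45 in the others. The 128 lie between 0.14 and 0.81 in the 2 dpi libraries and between -1.46 and 0.69 in the others.

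The member ranked 1 was Solyc03g121790, whose Arabidopsis homolog EPFL1 encodes a secreted cysteine-rich peptide of the EPF-like family. In the wild type it had 6.81, 9.04 and 4.53 RPM in SYM, 20, 23.7 and 24.1 in F&IM, 96.2, 96.5 and 86.8 at 2 dpi, 37.3, 36.3 and 27.5 at 4 dpi and 7.15, 10.9 and 8.39 at 6 dpi. The lc libraries of 2 dpi had 104, 117 and 80.3 RPM, those of fas 132, 134 and 96.5, and the lc/fas libraries 114, 127 and 117. The 9 NIL libraries of 2 dpi all exceeded the 36 others, of which the highest was at 45.6 RPM. The excess was 2.76 ± 0.09 log2 units (SE), and edgeR's adjusted p against each stage was 2.15e-15. It was also called within each NIL, with edgeR adjusted p of 0.000111 for lc, 5.05e-07 for fas and 8.54e-06 for lc/fas.

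The preceding row of the table, Solyc03g121780, was also called. It had 1.58 to 2.39 RPM in wild-type SYM, 2.81 to 3.83 in F&IM, 21.4 to 26.4 at 2 dpi, 11.1 to 12.7 at 4 dpi and 1.38 to 5.57 at 6 dpi. In the NILs its 2 dpi libraries ran from 19 to 33.8 RPM and the 36 others reached 14.6 RPM at most. The excess was 2.69 ± 0.10 log2 units (edgeR adjusted p 1.76e-08). These were the 1 pair of neighbouring rows in which both were called, and 8 members had another member as the next row. Whether counting used strand is not given in the sources used here, so reads shared between neighbours cannot be told apart.

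Solyc01g094970, which has no annotation in the sources used here, had the largest excess of the 22, 3.29 ± 0.12 log2 units (edgeR adjusted p 3.46e-09). It had 16, 11.9 and 12.5 RPM at 2 dpi in the wild type. The lc replicates had 22.7, 15.4 and 14 RPM at that stage, the fas replicates 19.3, 18.4 and 17.5, and the lc/fas replicates 18.2, 18.6 and 12.9. Outside 2 and 4 dpi it stayed at or below 2.47 RPM in the libraries of all genotypes, and the highest 4 dpi library had 8.86 RPM. The 2 dpi libraries of all 4 genotypes thus lay above every other library.

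Solyc07g062840 is the homolog of Arabidopsis CUC2, a NAC transcription factor that marks boundaries between organs and between organ and meristem. Its wild-type values were 166, 188 and 103 RPM in SYM, 130, 149 and 152 in F&IM, 239, 226 and 240 at 2 dpi, 139, 131 and 142 at 4 dpi and 36.9, 77.7 and 62.7 at 6 dpi. At 2 dpi the lc libraries were at 238, 274 and 241 RPM, the fas libraries at 242, 234 and 224, and the lc/fas libraries at 246, 259 and 237. The gene was well expressed before 2 dpi too, and 1 lc SYM library, at 236 RPM, reached into the NIL 2 dpi range of 224 to 274 RPM. The excess was 1.09 ± 0.07 log2 units, and the smallest of the 4 stage differences was 0.55 (edgeR adjusted p 0.000652).

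Both members with a homolog in hormone synthesis were called, beside 14.7% of the 150 members. Solyc06g065630 is the homolog of YUC4, a flavin monooxygenase of auxin synthesis in Arabidopsis. It had 79.7, 64 and 76.5 RPM at 2 dpi in the wild type against 41.3 to 50.9 RPM at 4 dpi, its next highest stage. In the NILs it ran from 66.4 to 98.8 RPM at 2 dpi and reached 69.1 RPM in 1 fas library of 4 dpi, so the stages overlapped in fas. The excess was 0.88 ± 0.06 log2 units (edgeR adjusted p 0.000135).

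Solyc02g084740 is the homolog of ROT3, a cytochrome P450 of brassinosteroid synthesis that acts in polar cell elongation in Arabidopsis. It had 27.3, 26.9 and 25.2 RPM at 2 dpi in the wild type. The lc libraries of this stage had 23.9, 26.8 and 29 RPM, the fas libraries 30.3, 36 and 27.8, and the lc/fas libraries 37.1, 38.6 and 30.9. All 3 lc/fas libraries were above all 3 of lc. The excess was 1.33 ± 0.09 log2 units with the NILs together (edgeR adjusted p 0.000213), and within lc/fas the gene was called too (edgeR adjusted p 0.00116). The excess in lc/fas minus that in lc was 0.55 ± 0.20 log2 units (edgeR, unadjusted p 0.00816, adjusted p 1), which was not called.

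Of 4 members with homologs among other transcription factors, 1 was called, beside 14.7% of the 150 members. Solyc09g007260 is the homolog of RAP2.7, an AP2-domain repressor of flowering in Arabidopsis. It had 54.2, 51.4 and 55.8 RPM at 2 dpi in the wild type. In lc it had 55.4, 67 and 49.7 RPM, the fas libraries held 58.5, 45.3 and 51.4, and the lc/fas libraries 44.4, 40.6 and 47.9. The 9 NIL libraries of 2 dpi lay above the 36 others, whose highest was 39.4 RPM. The excess was 1.58 ± 0.08 log2 units (edgeR adjusted p 0.00133). The homologs of GRF3, a growth-regulating factor (Solyc01g091540), AIL1, an AP2-domain protein (Solyc03g123430), and bHLH131 (Solyc11g010620) had excesses of 0.65 ± 0.08, 0.52 ± 0.09 and 0.24 ± 0.08 log2 units. All 3 passed the test of the excess (edgeR adjusted p 1.17e-08, 2.33e-05 and 0.0216) but not that of each stage (0.592, 0.282 and 1).

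Solyc01g107560 is the homolog of UGT84A1, a glucosyltransferase of phenylpropanoid metabolism in Arabidopsis. It had 63.9, 69.1 and 66.3 RPM at 2 dpi in the wild type and 50.3 to 68.4 RPM in the NILs, where 1 lc library of 4 dpi reached 53.9 RPM. The excess was 0.72 ± 0.06 log2 units (edgeR adjusted p 0.000135). Solyc12g006100, the homolog of MAIL3, had 28.2, 28.9 and 27.2 RPM at 2 dpi in the wild type and 26.8 to 44.8 RPM in the NILs, where no library of another stage reached the lowest of these. Its excess was 1.25 ± 0.09 log2 units (edgeR adjusted p 6.51e-05).

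**Figure D3:**
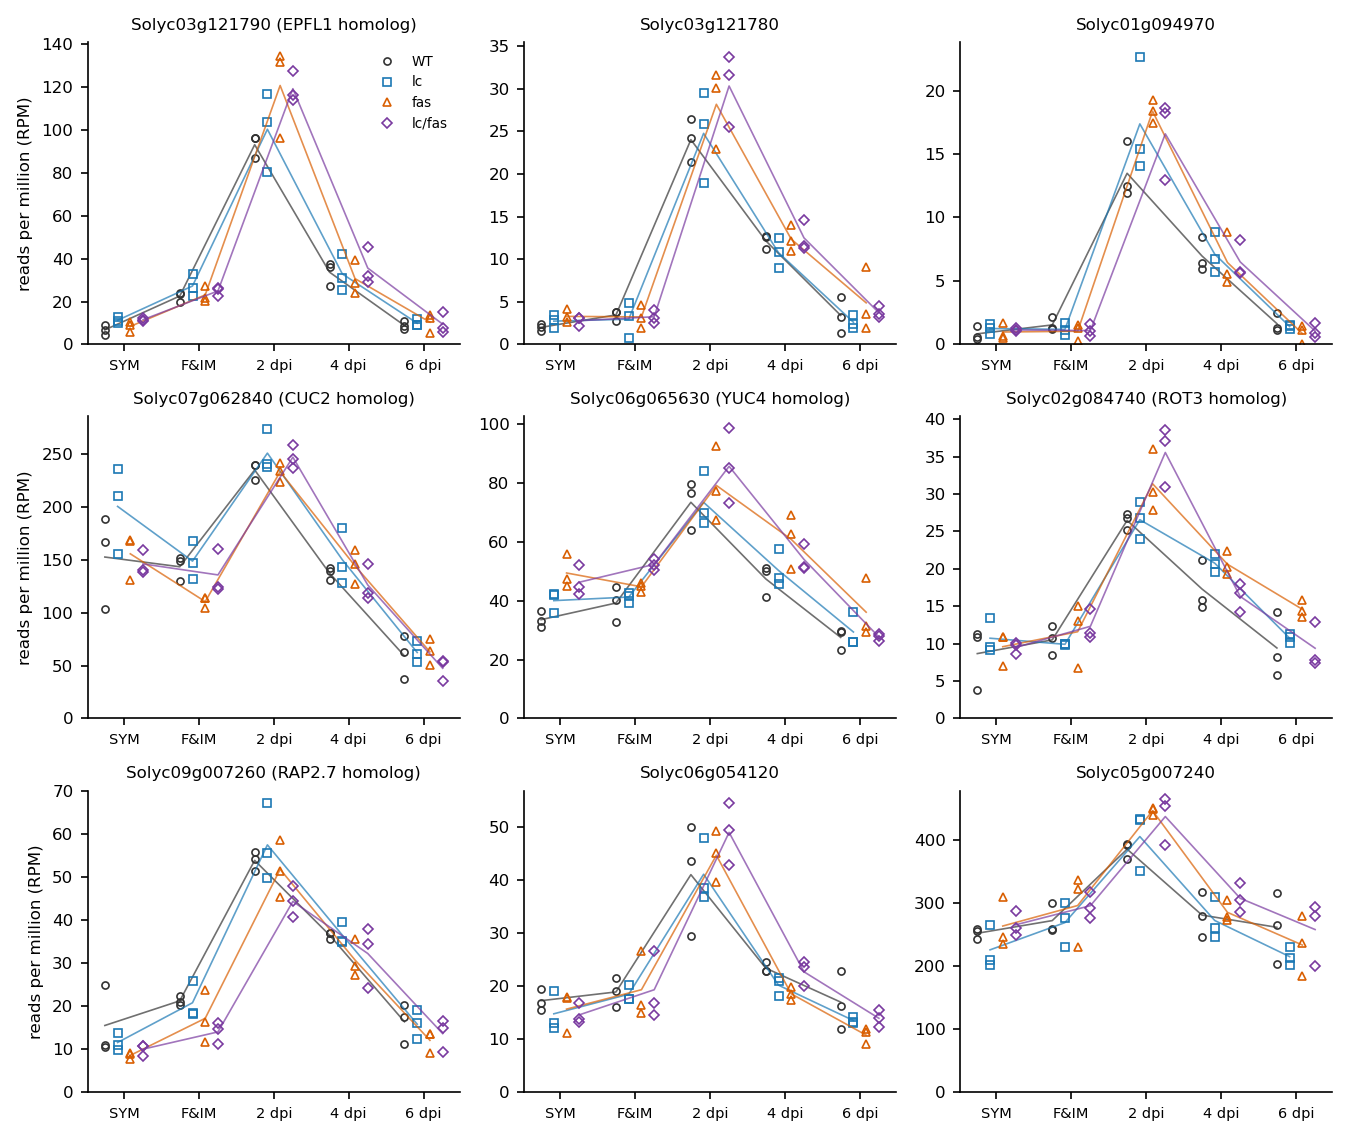
RPM (y axis, from 0) by stage (x axis) of 9 of the 22 called members in every library. Symbols are libraries, lines join the means of 3, and colours give the genotype. In Solyc03g121790, Solyc03g121780 and Solyc01g094970 all 12 libraries of 2 dpi lie above every library of another stage, and in Solyc07g062840 an lc SYM library at 236 RPM lies within the range of the 2 dpi libraries.

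The other 13 called members have no annotation in the sources used here. Solyc06g054120 had 43.6, 50 and 29.5 RPM at 2 dpi in the wild type and 36.8 to 54.6 RPM in the NILs, against at most 26.7 RPM in the 36 other libraries. It was called within each NIL, with edgeR adjusted p of 0.0407 for lc, 0.000493 for fas and 0.00292 for lc/fas. Solyc05g007240, the called member of highest level, had 392, 392 and 370 RPM at 2 dpi in the wild type and 350 to 464 RPM in the NILs, where the 36 other libraries reached 335 RPM at most. Its excess was 0.70 ± 0.07 log2 units (edgeR adjusted p 0.000135).

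Solyc06g053930 and Solyc06g069150 had excesses of 1.97 ± 0.13 and 1.61 ± 0.10 log2 units and were at 0.987 to 3.61 and 0 to 3.92 RPM in the NIL libraries of 6 dpi. Solyc03g114210, Solyc11g011310, Solyc10g005210, Solyc06g072520 and Solyc04g074110 had excesses between 0.88 and 1.07. Solyc01g090460, Solyc08g079760, Solyc03g121080 and Solyc02g087040 passed less firmly, with edgeR adjusted p of 0.0328, 0.0903, 0.0263 and 0.0215, and were the 4 of the 22 that lost the call in at least 1 of 16 alternative fits. Solyc08g079760, ranked 3, had 17.2 to 47.6 RPM at 2 dpi in the NILs and up to 29.7 RPM elsewhere, and was called in 7 of the 16. In all, 11 of the 150, each 1 of the 22, had their 9 NIL 2 dpi libraries above the 36 others, against 0.112% of all genes tested.

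Many of the 128 other members were lower together in the libraries that stood apart. In WT 6 dpi, 90 of the 128 and 1 of the 22 were at least 1 log2 unit lower in both replicates 1 and 3 than in replicate 2, against 6.78% of the 11726 genes above the minimum. In WT SYM, 85 of the 128 and 3 of the 22 were that much lower in replicate 3 than in both others, against 6.77%. In lc/fas 6 dpi, whose libraries had no part in the choice of the members, the counts were 84 and 1, against 5.62%. The low libraries were themselves singled out by the median of the same 128. The NIL test that set the 22 apart also favours low spread in lc/fas 6 dpi. These counts are therefore a description and not an independent check. Fewer followed in the other low libraries, 35 of the 128 in fas SYM replicate 1 (1.90%) and 18 in fas F&IM replicate 3 (1.07%), with 0 of the 22 in both. The same difference in the opposite direction was seen in 0.341%, 0.264% and 0.878% of the 11726 genes in WT 6 dpi, WT SYM and lc/fas 6 dpi. Without the 4 low NIL libraries, edgeR called 25 members, among them all 22. The share of counts taken by the 20 most counted genes was 13.7%, 11.2% and 13.1% in the replicates of WT 6 dpi, 14.1%, 11.6% and 13.6% in lc/fas 6 dpi and 8.88%, 8.37% and 9.69% in WT SYM, so it was higher in the low libraries of these 3 groups. In fas F&IM it was 8.22%, 7.76% and 8.78%, and the low library was the highest. In fas SYM it was 8.12%, 7.86% and 8.69%, and the low library was not the highest. Over the 60 libraries, the within-group deviation of this share had a Pearson's r of -0.65 to that of the median of the 128. For the log2 of the library total the r was 0.02. The movement was not particular to the members, since 22.2% of all genes tested, beside 114 of the 128 and 9 of the 22, had a within-group deviation with Pearson's r above 0.5 to that of the median of the 128 over the 60 libraries, a description in which the 128 are compared with their own median. In the opposite direction, 16.6% of all genes tested had an r below -0.5, and the median r of all genes was -0.02. The part of library composition in these levels was not tested.

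Solyc02g078360, the homolog of the glutaredoxin GRXS17 of Arabidopsis, was 1 such gene. It had 66.6, 66.1 and 81.9 RPM at 2 dpi in the wild type, but 9.92, 116 and 25.3 RPM in the 3 replicates of 6 dpi. In lc/fas 6 dpi it had 21.7, 134 and 35.1 RPM. In the NILs its 2 dpi libraries ran from 35.8 to 86.4 RPM, within the range of the other stages, and the excess was -0.03 ± 0.19 log2 units.

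Solyc01g094690, the homolog of the aquaporin PIP1;4 of Arabidopsis, was the member of highest level. It had 2212, 2135 and 2440 RPM at 2 dpi in the wild type, and 1231, 1084 and 369 RPM in WT SYM. In lc it had 1876, 1879 and 1887 RPM at 2 dpi, and 2216 RPM in 1 F&IM library. The excess with the NILs together was 0.53 ± 0.09 log2 units, which passed the test of the excess (edgeR adjusted p 9.11e-06) and not that of each stage (0.991). Solyc02g069840, the homolog of the ribosomal protein RPL20, had a wild-type mean of 710 ± 33.9 RPM (SD, n = 3) at 2 dpi and an excess of 0.20 ± 0.09. Solyc02g094490 and Solyc06g060290 had excesses of 0.30 ± 0.09 and 0.46 ± 0.15. Solyc02g084840 had 366, 336 and 351 RPM at 2 dpi in the wild type, and 133, 453 and 143 RPM at 6 dpi. Its excess was 2.36 ± 0.18 log2 units, with 3.15 to 20.7 RPM in NIL SYM libraries and up to 424 RPM at 4 dpi in fas.

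**Figure D4:**
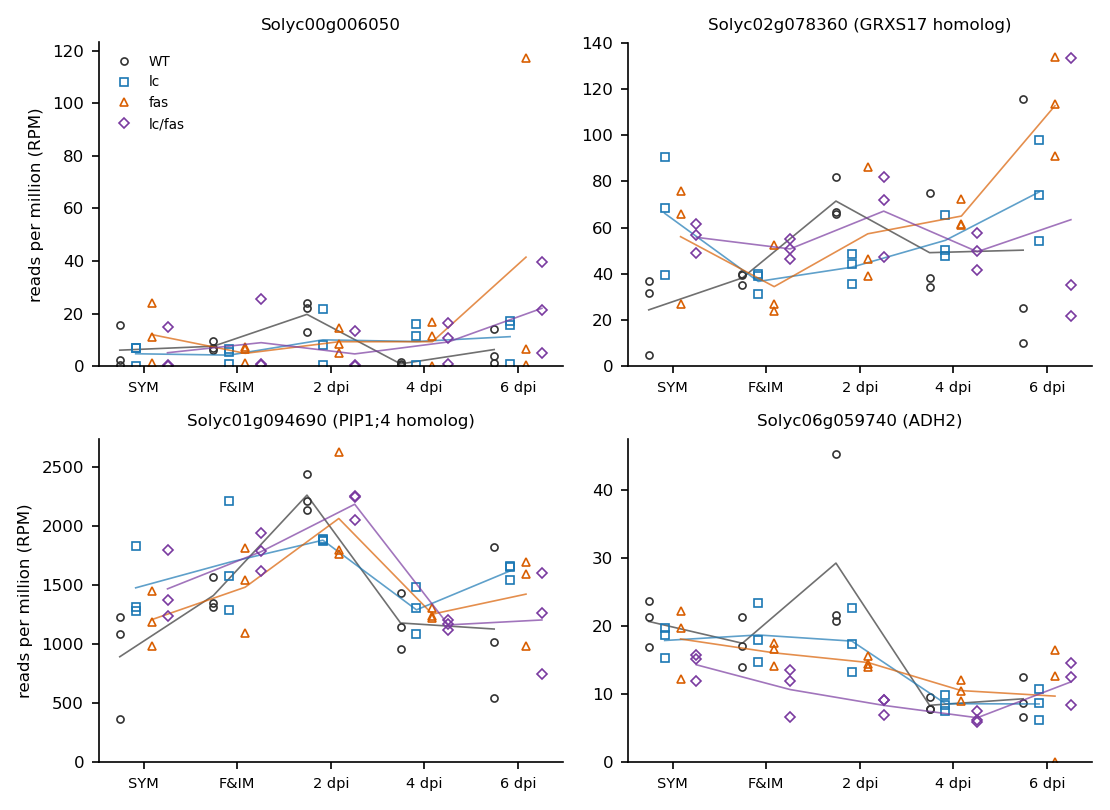
RPM (y axis, from 0) by stage (x axis) of 4 members that were not called, drawn as in the plot of the called members. Replicates of a group lie far apart, as for Solyc02g078360 at 6 dpi in the wild type (9.92, 116 and 25.3 RPM), and Solyc06g059740 at 2 dpi is lowest in lc/fas (6.89 to 9.12 RPM).

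An Arabidopsis homolog was given for 56 of the 150 members, 7 of them among the 22, in a list the study made for genes it picked on these libraries, and 43 had a name with a known role. Of all 150 members, 14.7% were called for each stage and 74% passed the test of the excess. The counts by role stand beside these shares and rest on few genes. Of 4 members linked to cell division, 0 were called for each stage by edgeR and 2 passed the test of the excess. These were Solyc03g093250 (SMC2, a condensin subunit) with 0.49 ± 0.14 and Solyc11g070140 (CDKA;1, a central cell cycle kinase) with 0.40 ± 0.16 log2 units (edgeR adjusted p 0.00726 and 0.0603). Solyc02g093810 (AUG6, an augmin subunit of the spindle) had 0.06 ± 0.23 and Solyc03g111560 (GSL8, a callose synthase of the cell plate) 0.34 ± 0.23.

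The 3 homologs of DNA repair genes had low levels. Solyc08g068120 (TEB, a DNA polymerase), Solyc01g068340 (MUS81, an endonuclease) and Solyc03g120200 (RTEL1, a helicase) had wild-type 2 dpi means of 12.5 ± 2.68, 11.3 ± 1.79 and 15.6 ± 0.608 RPM (SD, n = 3). Their excesses in the NILs were 0.61 ± 0.20, 0.57 ± 0.19 and 0.28 ± 0.19 log2 units, and the former 2 passed the test of the excess (edgeR adjusted p 0.0156 and 0.0232). Of 5 homologs of chromatin genes, 2 passed it, Solyc07g039320 (FVE, a WD-repeat protein of the autonomous flowering pathway) with 0.86 ± 0.20 and Solyc01g079700 (CHR12) with 0.42 ± 0.17.

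Of 4 members linked to signalling, 3 passed the edgeR test of the excess and 0 that of each stage. Solyc06g005520 (a receptor-like cytoplasmic kinase) had 0.34 ± 0.12 log2 units (edgeR adjusted p 0.0236 for the excess), and Solyc04g049160 (CPK11, a calcium-dependent protein kinase) had 0.28 ± 0.13 (0.105), which was not called. By NIL, Solyc01g109080, the homolog of the growth-regulating kinase TOR, had 0.02 (lc), 0.64 (fas) and 0.98 (lc/fas) log2 units. Solyc09g007170 (CDL1, a receptor-like cytoplasmic kinase) had -0.01, 0.60 and 0.68 in the same order. Of the carbohydrate enzymes, Solyc09g008990 (CSLA9, a glucomannan synthase) had 0.66, 1.04 and 1.07, and Solyc10g083290 (cwINV2, a cell wall invertase) had 0.87, 0.85 and 0.96. These values by NIL are a description, since edgeR called 0 of the 150 members for a different excess between any pair of NILs. Solyc03g098460, the homolog of FEY, which acts in leaf positioning and meristem development in Arabidopsis, had 106 ± 10.9 RPM (SD, n = 3) at 2 dpi in the wild type and an excess of 0.42 ± 0.07 log2 units (edgeR adjusted p 1.85e-06 for the excess).

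Other members near the top of the ranking behaved unevenly. Solyc00g006050, ranked 2 with 13.1, 24.1 and 22.1 RPM at 2 dpi in the wild type, had no stable level in any NIL. Its 2 dpi values were 0.634, 21.6 and 8.03 RPM for lc, 14.7, 4.94 and 8.49 for fas, and 13.6, 0.134 and 0.507 for lc/fas, and the 6 dpi values for fas were 117, 0.538 and 6.8 RPM. Its excess was -0.33 ± 0.65 log2 units. Solyc08g078910, ranked 4, had 21.2, 21.4 and 27.9 RPM at 2 dpi in the wild type and an excess of 1.95 ± 0.17 log2 units in the NILs, but an F&IM library of fas reached 19 RPM (edgeR adjusted p 0.178 for each stage). Solyc08g078890, 2 rows away in the table and the homolog of a gene like those of lipid transfer proteins, had an excess of 1.42 ± 0.11, with 2.89 to 8.13 RPM in NIL libraries of 4 and 6 dpi. It was not called for each stage. In lc/fas, libraries of SYM and F&IM reached its 2 dpi range. Replicate 3 had 164 of 4705791 counts in F&IM and 125 of 3948088 at 2 dpi.

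Solyc01g095960, ranked 8, had 99.4, 151 and 264 RPM in the 3 wild-type libraries of 2 dpi, and replicate 3 was also the highest at 2 dpi in each NIL, with 223 RPM (lc), 134 RPM (fas) and 191 RPM (lc/fas). Its excess was 0.98 ± 0.19 log2 units and its edgeR adjusted p for each stage was 1, although 1 of the 16 alternative fits called it. Solyc10g011950, Solyc12g014210, Solyc11g007610, Solyc01g102460, Solyc03g095310, Solyc04g050160 and Solyc04g049150 completed the first 20, with excesses between 0.39 and 1.04 log2 units, and 0 of them were called by edgeR. The smallest excesses besides those of Solyc00g006050, Solyc02g078360 and Solyc02g093810 were those of Solyc01g108940 (-0.04 ± 0.09), Solyc02g071270 (0.01 ± 0.16) and Solyc03g115240 (0.04 ± 0.12).

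Between NILs, 0 members were called at 2 dpi by edgeR or by DESeq2. For fas against lc, lc/fas against lc and lc/fas against fas, edgeR called 0.0321%, 0.0321% and 0.0107% of all genes, and 0, 3 and 1 members had an unadjusted p under 0.05, beside 2.71%, 2.74% and 1.36% of all genes. The median log2 difference of the members was 0.09, 0.22 and 0.13, with medians of all genes of at most 0.01, and 102, 126 and 128 of the 150 were above 0, beside 50.2%, 51.5% and 52.6% of all genes. For lc/fas against lc the median was 0.25 over the 128 and 0.04 over the 22. The relative level of the 128 was 0.65, 0.30 and 0.24 in the lc libraries of 2 dpi and 0.77, 0.81 and 0.36 in those of lc/fas, so the libraries overlapped.

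By group means on the log2(RPM + 1) scale the median excess of the members was 0.28 for lc, 0.46 for fas and 0.58 for lc/fas. With edgeR, 0 members differed in their excess between any pair of NILs (0% of all genes), 0, 2 and 1 did so at an unadjusted p under 0.05, beside 1.45%, 1.87% and 1.43% of all genes, and DESeq2 called 0. Over the 5 stages, edgeR called 0 members where 1.69%, 0.914% and 0.107% of all genes were called for the 3 pairs in the same order, and DESeq2 called 0. At an unadjusted p under 0.05 there were 13, 12 and 4 members (8.67%, 8% and 2.67% of the 150), beside 10.7%, 7.66% and 4.25% of all genes. The count of 0 over the 5 stages depended on the fit. It became 4, 0 and 1 without fas replicate 3, 3, 3 and 0 without lc replicate 3, and 3, 1 and 0 without the 4 low NIL libraries, and the alternatives reached at most 5, 3 and 1. The smallest adjusted p was that of the cell wall invertase homolog Solyc10g083290 for fas against lc, -0.28 ± 0.09 log2 units (edgeR adjusted p 0.15). A p that misses the threshold does not show that the NILs had equal levels.

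The member nearest to a difference between NILs at 2 dpi was Solyc06g059740, named ADH2 by the study, the homolog of an alcohol dehydrogenase of Arabidopsis. The study listed this gene among those with a significant interaction of genotype and developmental stage, in a test that included the wild type. At 2 dpi it had 21.7, 20.8 and 45.3 RPM in the wild type. The lc libraries had 17.4, 13.3 and 22.7 RPM, those of fas 15.6, 14 and 14.4, and those of lc/fas 6.89, 9.12 and 9.12. The lc/fas libraries were below all others of that stage. The log2 difference between lc/fas and lc was -1.08 ± 0.27 (edgeR, unadjusted p 0.000272, adjusted p 0.424), which was not called. The excess was 0.52 (lc), 0.06 (fas) and -0.33 (lc/fas), and in lc the 2 dpi libraries overlapped with SYM at 15.3 to 19.7 RPM. The highest stage mean in lc was that of F&IM, where replicate 3, with 68 of 2900100 counts, stood above all lc libraries of 2 dpi.

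Set beside the wild type, the 3 comparisons of a stage share the wild-type libraries that chose the members, so the values are a description only. At 2 dpi the median log2 fold change of the 150 was -0.22 (lc), -0.15 (fas) and -0.03 (lc/fas), and all 3 NIL libraries were below all 3 wild-type libraries for 24, 8 and 6 members, beside 4.65%, 3.05% and 3.97% of all genes. For the 22 called members the medians were 0.06, -0.04 and 0.11. In SYM the medians of the 150 were 0.56, 0.28 and 0.54, and all 3 NIL libraries were above all 3 wild-type libraries for 23, 7 and 47 members, beside 5.6%, 5.11% and 9.71% of all genes. The wild-type group holds WT SYM replicate 3, in which the 128 stood lowest, and the medians of the 22 were 0.25, 0.08 and 0.10. In F&IM the medians were 0.02, -0.11 and 0.18, at 4 dpi 0.12, 0.12 and -0.02, and at 6 dpi 0.36, 0.49 and 0.08. At 6 dpi the wild-type group holds replicates 1 and 3, in which the 128 stood at -1.24 and -0.82, and the medians of the 22 were 0.04, -0.01 and -0.04.

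Genes of related function are given from lists of identifiers. Of all genes tested, 0.315% were called for each stage, and by the test of the excess 18.5% were higher and 16.8% lower. Of 14 meristem, boundary and inflorescence genes, the CUC2 homolog was the 1 member and the 1 called for each stage, while by the edgeR test of the excess 9 were higher and 2 lower. The STM homolog (Solyc02g081120), a homeobox gene that maintains the meristem, had 216, 465, 379, 151 and 77 RPM from SYM to 6 dpi in the wild type. Of 18 floral MADS-box genes tested, 0 were members and 1, Solyc12g038510, a homolog of SEP4, was called (edgeR adjusted p 0.0633), with 49.2, 198 and 155 RPM in wild-type F&IM, 2 dpi and 4 dpi. By the excess 12 were higher and 6 lower. A gene can be higher by the excess and still stand highest at another stage. Solyc05g015750 had an excess of 1.83 with wild-type means of 167, 460 and 491 RPM at 2, 4 and 6 dpi. SlCLV3 had 1.03 with wild-type means of 62.7 RPM in SYM and 19.8 RPM at 2 dpi. The counts by the excess are therefore not counts of genes highest at 2 dpi. Of 5 mitosis genes 0 were members and 0 were called by edgeR, although 4 were higher by the excess. In all, 37 genes outside the 150 were called in the NILs, of which 36 had their highest wild-type mean at 2 dpi, 9 were below 10 RPM, and the others had ratios of the rule up to 1.29.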

How the data were processed

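The authors trimmed 3′ Tag RNA-seq reads with fqtrim, mapped them to the ITAG2.4 tomato release with Rsubread and deposited 1 table of raw counts per gene for 60 libraries. The submitters' processing notes also name DESeq2. The row without a gene name (0.233% to 3.01% of a library's counts) was left out. A tag counts a transcript about once, whatever its length. Reads were amplified by PCR, and depth speaks to counting error only.

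RPM, means and SDs were computed from column totals in Python 3.11.15 (pandas 2.3.3). Counts of the 45 NIL libraries were tested in R 4.3.3 with edgeR 4.0.16 (TMM, filterByExpr, robust quasi-likelihood fit). Benjamini-Hochberg adjustment ran over 18712 genes with a threshold of 0.1. Tests within a NIL, between NILs at 2 dpi and of a difference in excess fitted the 15 groups of NIL and stage. Tests with the NILs together and between NILs over all stages fitted stage and NIL as additive terms. That fit has no interaction, so it took the stage pattern as shared by the NILs. DESeq2 1.42.0 was an alternative. On counts simulated from these libraries (18248 genes), the test with the NILs together recovered 98% of 2-fold and 84% of 1.5-fold peaks at 2 dpi, and the test in lc alone 70% and 7%. The simulated peaks were in genes picked at random, without any movement shared between genes. In the NILs the 128 had a median within-group SD of 0.49 on the log2 scale, against 0.22 for the genes above the minimum. The recovered shares therefore need not hold for the members. Replicates are the biological replicates of the study, and p-values measure the spread between these samples.

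Members, lists and tests were chosen with earlier results of these data known. Genes were named if among the first 20 by rank, named by the study, up to 4 of highest level in a functional group, called between NILs (at most 10 a contrast), 3 on either side of rank 150, the 6 of smallest excess or the 6 of highest level. The called members and those with homologs were named after their values were seen. Groups by product name and promoter motifs were planned and not run, because no table used here pairs these identifiers with products or sequences. Alternatives were other scalings, no filter on low counts, a threshold of 0.05, a replicate block, other settings of the rule and libraries left out.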

Additional observations from a re-analysis of the deposited data

How the results depend on the processing

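The count of 22 members called with the NILs together was 19 to 22 without 1 replicate and 21 to 29 under the other settings. Within lc the count of 2 became 4 with the DESeq2 Wald test, 4 with no filter on low counts and 4 without the 4 low NIL libraries (chosen after seeing the data), and 0 to 4 without 1 replicate. It was 1 to 4 for fas and 1 to 7 for lc/fas without 1 replicate. Members that differed over the 5 stages, 0 in each pair, became 3 (fas against lc) and 1 (lc/fas against lc) without the 4 low libraries, and 0 to 4, 0 to 3 and 0 to 1 (lc/fas against fas) without 1 replicate. The cause was not tested.

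With the replicate block, 29 members were called with the NILs together, 7, 9 and 12 within lc, fas and lc/fas, and 5, 3 and 1 over the 5 stages, and no other count between NILs changed. The labels do not tie the numbers to shared plants or days, and 5 of 36 same-numbered pairs of stages and 2 of 9 pairs of NILs did not correlate above 0.1 in their deviations, so the numbers were not taken as pairs. The comparisons of NILs over the 5 stages thus took all libraries of a NIL as independent. If stages of a number came from a shared collection, those p-values may be too small. As a hint from the data, the mean correlation was 0.23 and 0.20 for the same number. In all, 30 of 36 and 9 of 9 libraries correlated best with their own number. The means for different numbers, -0.12 and -0.10, add nothing to this, since deviations from a group mean cancel within the group.

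The excess was called for 97 to 115 members without 1 replicate (111 with all), and its median was 0.22 to 0.38 for lc, 0.35 to 0.53 for fas and 0.52 to 0.70 for lc/fas. Of the 150, 93 to 104 stayed members without 1 wild-type replicate, 91 with medians, 102 and 101 with minima of 5 and 20 RPM, 143 and 129 with pseudocounts of 0.1 and 5, 138 with TMM scaling and 53 without the 3 low wild-type libraries (chosen after seeing the data).

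The excess turned sign for 6 named genes. Solyc02g071270 was at -0.0029 with DESeq2 size factors, -0.014 with the DESeq2 Wald test and -0.092 without the 4 low libraries, where Solyc03g115240 was at -0.014 and Solyc02g093810 at -0.088. Without 1 replicate, Solyc00g006050 ran from -0.78 to 0.096, Solyc02g078360 from -0.17 to 0.087, Solyc02g071270 from -0.058 to 0.086, Solyc03g115240 from -0.027 to 0.11, Solyc02g093810 from -0.042 to 0.18 and Solyc06g059740 from -0.021 to 0.16.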
